A study of Homo sapiens with 4 samples.

Results

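The genes of transforming growth factor-beta (TGF-beta) signalling described here are TGFB1, TGFBR1, TGFBR2, TGFBR3, SMAD2, SMAD3, SMAD4, SMAD6, SMAD7 and SKIL. They were chosen by gene symbol, and all 10 were found among the 32673 genes of the expression table. RNA sequencing compared imatinib-sensitive TF1-BA cells with imatinib-resistant TF1-BAR cells, with 2 libraries for each line. TF1 is a human erythroleukaemia cell line that needs granulocyte-macrophage colony-stimulating factor (GM-CSF), and TF1-BA cells are TF1 cells that carry BCR-ABL, the fusion kinase of chronic myeloid leukaemia (CML), after retroviral infection. TF1-BAR cells were derived from TF1-BA cells by months of continuous exposure to imatinib, an inhibitor of the BCR-ABL kinase, and so carry BCR-ABL as well. Per the labels, both lines grew in RPMI-1640 with 10% foetal bovine serum and 2 ng/mL GM-CSF, for which the methods of the study state another concentration, and 2 uM imatinib was added to the TF1-BAR cultures. Whether the drug was still present when RNA was extracted is not stated, so that the resistant state and an effect of the drug itself cannot be told apart. Each library came from 10000000 cells, and the titles of the TF1-BAR libraries call them vector samples. The sources used here do not say whether either line is a clone or whether replicates were separate cultures, so that p-values measure only the spread between these libraries, which may be technical.

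TGF-beta is a secreted cytokine that is held in a latent form and binds, once active, to a type II receptor, which recruits and phosphorylates a type I receptor. The type I receptor phosphorylates SMAD2 and SMAD3, which join SMAD4 and enter the nucleus to regulate transcription, while SMAD6 and SMAD7 inhibit the receptors and SKIL represses SMAD-dependent transcription. In blood-forming cells, TGF-beta is known as an inhibitor of the growth of early progenitors.

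At an adjusted p under 0.05, 3 of the 10 genes changed (30%, against 26.9% of all genes tested), and 0 of the 10 did when TF1-BA replicate 1, TF1-BA replicate 2 or TF1-BAR replicate 2 was left out. The 3 genes were TGFBR2, SMAD6 and SMAD7, which were all higher in TF1-BAR cells, by 1.45-fold, 1.51-fold and 1.83-fold in FPKM (fragments scaled to the length of the gene's exons and to the mapped fragments of the library). None of the 10 genes passed the test with a lower level, though SMAD2 and SMAD3 were lower in both TF1-BAR libraries and the interval of SKIL reached −0.59. The ligand gene TGFB1 and the signal-transducing SMAD2, SMAD3 and SMAD4 differed little, with log2 fold changes between −0.12 and 0.019, and did not pass the test.

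The upstream sequences of the 3 genes that rose are shown for that reason, as the 250 bases before the start site of each MANE Select transcript (RefSeq, GRCh38.p14), 5′ to 3′ on the strand of the gene, at chr3:30606351-30606600 (+) for TGFBR2, chr15:66701986-66702235 (+) for SMAD6 and chr18:48950966-48951215 (−) for SMAD7. Capitals mark the letters GTCTAGAC, a palindrome bound by SMAD proteins, or CAGAC, a shorter SMAD-binding sequence.
TGFBR2: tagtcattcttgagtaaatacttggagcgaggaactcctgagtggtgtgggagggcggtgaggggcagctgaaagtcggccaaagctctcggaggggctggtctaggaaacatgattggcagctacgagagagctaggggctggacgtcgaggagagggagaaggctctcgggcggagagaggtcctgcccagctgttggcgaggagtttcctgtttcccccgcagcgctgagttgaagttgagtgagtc
SMAD6: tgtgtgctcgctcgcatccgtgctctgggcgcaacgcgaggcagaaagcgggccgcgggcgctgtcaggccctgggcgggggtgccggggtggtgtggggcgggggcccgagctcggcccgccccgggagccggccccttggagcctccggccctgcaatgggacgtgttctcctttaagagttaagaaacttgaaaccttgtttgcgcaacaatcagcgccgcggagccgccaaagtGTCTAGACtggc
SMAD7: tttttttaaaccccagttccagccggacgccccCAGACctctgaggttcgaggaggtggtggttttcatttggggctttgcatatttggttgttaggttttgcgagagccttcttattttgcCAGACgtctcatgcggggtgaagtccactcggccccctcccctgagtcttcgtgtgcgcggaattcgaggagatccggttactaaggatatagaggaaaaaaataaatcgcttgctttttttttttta

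RefSeq windows from 250 bases before to 50 bases after the start were found for all 10 genes and searched on both strands, where a CAGAC on the other strand reads GTCTG. GTCTAGAC was present in 0.202% of the 35116 windows of all genes and in 1 of the 10, that of SMAD6, 12 to 5 bases before the start. CAGAC was present in 45.3% of all windows and in 4 of the 10, namely SMAD7 with 2 matches that begin 217 and 128 bases before the start, TGFBR1, SMAD3 and SKIL. The TGFBR2 window held neither. No window of the 10 genes held both motifs, so that no matches overlapped. These matches describe letters in the reference sequence, and binding was not measured. Gene starts of the expression table can lie outside these windows. The SMAD7 window, chr18:48950916-48951215, lies wholly upstream of its gene start in the expression table at 48950711, and the bases around that start were not searched.

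The libraries held 15465497 to 18042299 fragments, a range recovered from the FPKM values, in which the values of all 30853 genes above 0 were whole numbers of fragments. Pearson's r of log2(FPKM + 0.5) across genes was 0.983 between the TF1-BA libraries, 0.979 between the TF1-BAR libraries and 0.946 to 0.956 between lines. All 10 markers of the TF1 line, among them CD34, KIT and GATA1, had a mean of at least 1 FPKM, and their sum was 528 to 547 FPKM in TF1-BA and 638 to 655 FPKM in TF1-BAR libraries. Within this list CD34 rose from 25.2 to 57.5 FPKM, KIT from 26.9 to 59.0 FPKM (adjusted p = 0.00409 for both), TAL1 from 21.9 to 37.5 FPKM (adjusted p = 0.00976) and GATA2 from 199 to 237 FPKM (adjusted p = 0.0339), and the other 6 did not pass. Of the markers of other cells in the table, 0 of 7 for fibroblasts, 4 of 5 for platelets or megakaryocytes, 3 of 5 for lymphocytes and 1 of 5 for monocytes had a mean of at least 1 FPKM over the 4 libraries. Their sums were 0.906 to 0.987 against 1.69 to 1.70 FPKM for fibroblasts, 142 to 150 against 194 to 217 for platelets or megakaryocytes, 22.5 to 24.4 against 10.4 to 10.9 for lymphocytes and 13.9 to 15.5 against 17.1 to 17.9 for monocytes, each TF1-BA first. Of the lymphocyte markers, CD3D fell from 19.9 to 6.05 FPKM (adjusted p = 0.00282) and CD79A rose from 2.02 to 3.35 FPKM (adjusted p = 0.0260). ITGA2B rose from 124 to 167 FPKM (adjusted p = 0.0204), GP1BA from 8.61 to 21.4 FPKM (adjusted p = 0.00409), LUM from 0.213 to 1.14 FPKM (adjusted p = 0.0173) and CSF1R from 0.271 to 1.33 FPKM (adjusted p = 0.0124), and LYZ was at 14.4 and 16.1 FPKM (adjusted p = 0.209). The markers with a mean under 0.1 FPKM in both lines were DCN, PDGFRB, COL3A1 and COL1A2 for fibroblasts, PPBP for platelets, CD3E for lymphocytes and CD14, CD163 and FCGR3A for monocytes. The part of these shifts in the results below was not tested, and in bulk RNA fewer cells of a type cannot be told apart from less RNA per cell.

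To ask whether the pathway differed between sensitive and resistant cells, all 15519 genes with a mean of at least 0.5 FPKM were tested together with limma on log2(FPKM + 0.5), and log2 fold changes are TF1-BAR minus TF1-BA on that scale, which understates the change of low genes. All 10 genes passed the filter. With an adjusted p under 0.05, 3 of the 10 genes were higher, against 16.3% of all genes tested, and 0 were lower, against 10.5%. The share in either direction was 30% of the 10 genes and 26.9% of all genes, so that the set was called about as often as the table as a whole. Both thresholds of the study, applied there with DESeq2, ask for a 2-fold change in either direction beside the adjusted p. Applied here to limma on log2(FPKM + 0.5), they called 0 of the 10 genes and 4.75% of all genes. By limma voom on the recovered fragments 0 were called too, and 3 had an unadjusted p under 0.05 in limma. The libraries of the 2 lines did not overlap for 7 of the 10 genes, 5 with TF1-BAR above and 2 with TF1-BAR below, against 69.3% of all genes. The median log2 fold change was 0.17 over the 10 genes and 0.066 over all genes tested. With 2 libraries a line, the smallest p that an exact two-sided permutation test of a single gene can give is 0.333, so that each call relies on limma's spread, which is pooled over genes.

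**Figure D1:**
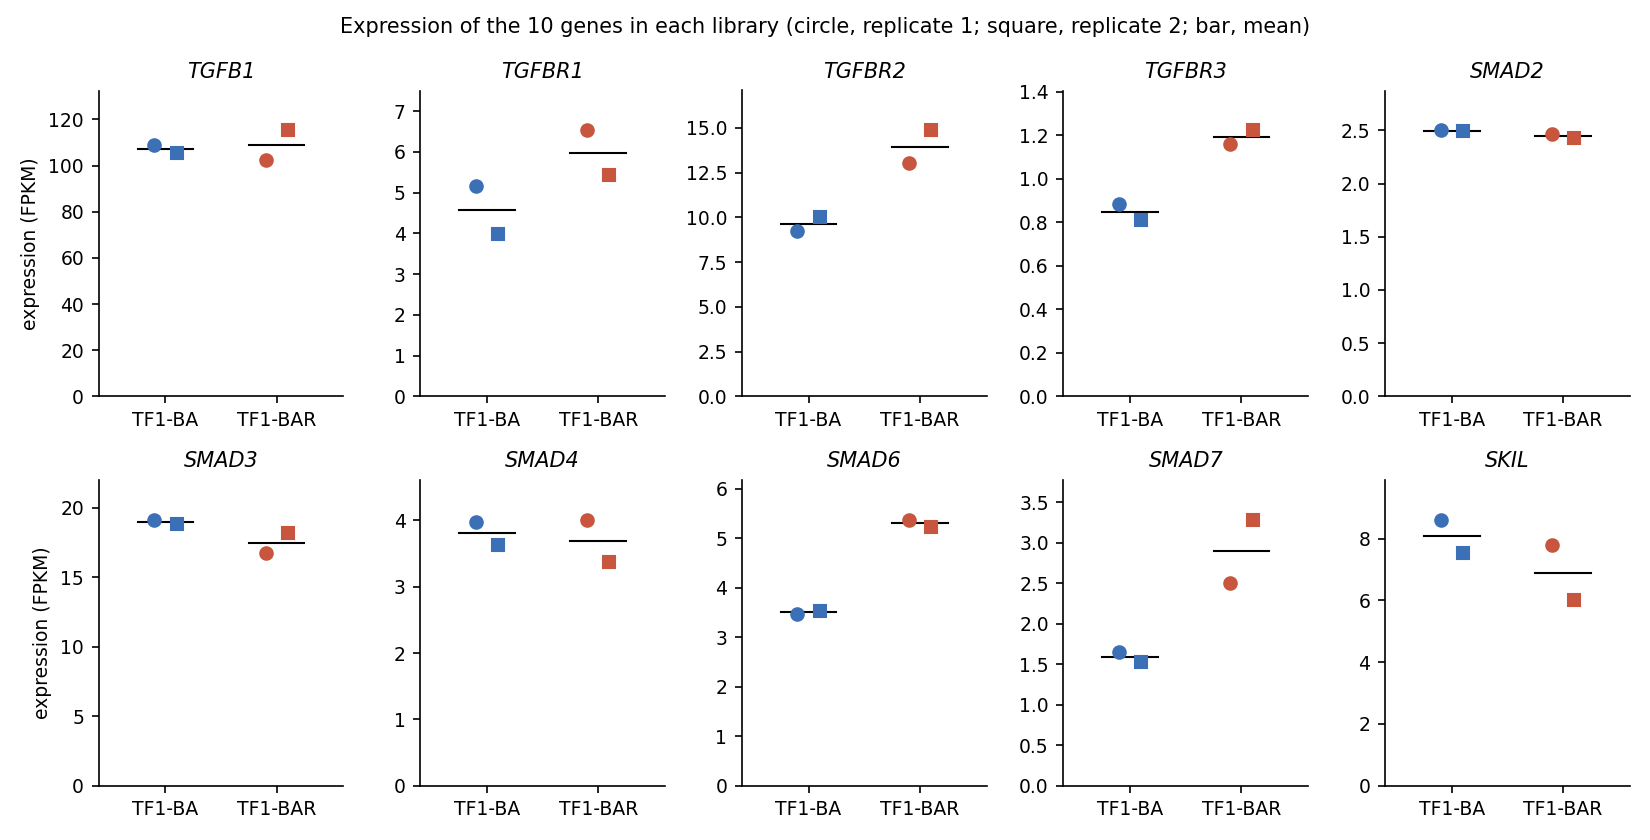
Expression of each gene in FPKM (vertical axis, from 0, scaled per gene) in the 2 TF1-BA libraries (blue) and the 2 TF1-BAR libraries (red), with replicate 1 as a circle, replicate 2 as a square and the mean as a bar. Both TF1-BAR points lie above both TF1-BA points for TGFBR1, TGFBR2, TGFBR3, SMAD6 and SMAD7.

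TGFB1 encodes the TGF-beta1 ligand (ENSG00000105329, minus strand, chr19:41301587-41353911, GRCh38 coordinates of the table as for all genes below, 7 exons in its MANE Select transcript). Its expression was 108.8 and 105.6 FPKM in the TF1-BA libraries and 102.3 and 115.2 FPKM in the TF1-BAR libraries. The TF1-BA values fell between the TF1-BAR values, so that the groups overlapped. The means were 107 ± 2.28 and 109 ± 9.15 FPKM (SD, n = 2), with a log2 fold change of 0.019 (SE 0.077, 95% confidence interval −0.18 to 0.22, adjusted p = 0.871). Its sign turned under upper-quartile scaling (−0.0077) and after subtraction of the chromosome median (−0.093). With 5221 to 5998 fragments in the TF1-BAR libraries it was the most deeply counted of the 10 genes. TGFB1 overlaps TMEM91, HNRNPUL1 and CCDC97 on the opposite strand, and since the library kit is not stated to keep strand, their reads cannot be told apart where the genes overlap. HNRNPUL1 was at 64.6 and 66.0 FPKM with a log2 fold change of 0.029 (adjusted p = 0.733), CCDC97 rose by 0.38 (adjusted p = 0.0470) and TMEM91 by 0.62 (adjusted p = 0.0208) on the log2 scale.

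TGFBR2 encodes the type II receptor, which binds the ligand first (ENSG00000163513, plus strand, chr3:30606502-30694142, 7 exons). It was expressed at 9.26 and 10.0 FPKM in the TF1-BA libraries and at 13.04 and 14.9 FPKM in the TF1-BAR libraries, with 786, 728, 967 and 1123 fragments behind these values. Both TF1-BAR libraries were above both TF1-BA libraries. The mean rose from 9.63 ± 0.527 to 13.9 ± 1.28 FPKM (SD, n = 2), a log2 fold change of 0.51 (SE 0.094, 95% confidence interval 0.27 to 0.75, adjusted p = 0.0219). The adjusted p was 0.0683 with no filter on low values, and 0.144, 0.110 and 0.0739 without TF1-BA replicate 1, TF1-BA replicate 2 and TF1-BAR replicate 2. Its 1 tested neighbour within 1 Mb had a log2 fold change of −0.30 and did not pass the test.

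TGFBR1 encodes the type I receptor, the kinase that phosphorylates SMAD2 and SMAD3 (ENSG00000106799, plus strand, chr9:99104038-99154192, 9 exons). Its level was 5.15 and 3.996 FPKM in TF1-BA and 6.53 and 5.43 FPKM in TF1-BAR libraries. The TF1-BAR libraries were above the TF1-BA libraries, by a gap smaller than the difference within either line. The means were 4.57 ± 0.816 and 5.98 ± 0.778 FPKM (SD, n = 2), and the log2 fold change of 0.36 (SE 0.15, 95% confidence interval −0.034 to 0.75, adjusted p = 0.144) did not pass the test. In both lines replicate 1 was the higher library, and the log2 fold change was 0.52 without TF1-BA replicate 1, 0.19 without TF1-BA replicate 2 and 0.23 without TF1-BAR replicate 1. With limma voom the value was 0.38 with an adjusted p of 0.0321, which passed.

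TGFBR3 encodes betaglycan, a co-receptor that presents the ligand to the type II receptor (ENSG00000069702, minus strand, chr1:91680343-91906335, 17 exons). It was the lowest of the 10 genes in FPKM, at 0.885 and 0.810 in TF1-BA and at 1.16 and 1.22 in TF1-BAR libraries, from 109 to 171 fragments. The lines did not overlap. The means were 0.847 ± 0.0533 and 1.19 ± 0.0447 FPKM (SD, n = 2), with a log2 fold change of 0.33 (SE 0.14, 95% confidence interval −0.046 to 0.70, adjusted p = 0.156), which did not pass. At this level the pseudocount counts, and with 0.1 FPKM limma gave 0.45 (adjusted p = 0.153), which did not pass either. Limma voom, which adds no 0.5 FPKM, gave 0.49 (adjusted p = 0.0225). It called 5860 of all genes at an adjusted p under 0.05, against 4167 by limma on log2(FPKM + 0.5).

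Of the 3 receptor genes, TGFBR2 passed the test. The resistant libraries lay above the sensitive ones for all 3, while 69.3% of all genes do not overlap in one direction or the other. The ratio of TGFBR2 to TGFBR1 in FPKM was 1.80 and 2.50 in TF1-BA and 2.00 and 2.74 in TF1-BAR libraries. These ratios overlapped between the lines.

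SMAD2 encodes a receptor-regulated SMAD of the TGF-beta branch (ENSG00000175387, minus strand, chr18:47808957-47931146, 11 exons). It was at 2.50 and 2.49 FPKM in TF1-BA and at 2.47 and 2.43 FPKM in TF1-BAR libraries, from 1400 to 1640 fragments. The spread within and between the lines was narrow, with both TF1-BAR values below the TF1-BA values. The log2 fold change was −0.021 (SE 0.095, 95% confidence interval −0.27 to 0.22, adjusted p = 0.884), and it became 0.040 when FPKM were rescaled to TPM. The length behind its FPKM was 36366 bases, near the 34626 bases of its MANE Select transcript, so that many fragments gave a low FPKM.

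SMAD3, the partner of SMAD2 that binds DNA directly (ENSG00000166949, plus strand, chr15:67063763-67195195, 9 exons), was at 19.1 and 18.9 FPKM in TF1-BA and at 16.8 and 18.2 FPKM in TF1-BAR libraries. Both TF1-BAR libraries were below the TF1-BA libraries. The means were 19.0 ± 0.198 and 17.5 ± 1.01 FPKM (SD, n = 2), and the log2 fold change of −0.12 (SE 0.073, 95% confidence interval −0.31 to 0.068, adjusted p = 0.271) did not pass. The ratio of SMAD3 to SMAD2 in FPKM was 7.66 and 7.58 in TF1-BA and 6.78 and 7.48 in TF1-BAR libraries. The lines did not overlap in this ratio, which was not tested.

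SMAD4, the common partner of the receptor-regulated SMADs (ENSG00000141646, plus strand, chr18:51028394-51085045, 12 exons), was at 3.98 and 3.63 FPKM in TF1-BA and at 4.01 and 3.38 FPKM in TF1-BAR libraries. The TF1-BA values lay between the TF1-BAR values. The log2 fold change was −0.040 (SE 0.11, 95% confidence interval −0.33 to 0.26, adjusted p = 0.819) and turned to 0.022 when FPKM were rescaled to TPM. For SMAD2, SMAD3 and SMAD4 the intervals exclude a rise or a fall by a log2 fold change of 0.5, and smaller changes lie within them.

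SMAD6 encodes an inhibitory SMAD that acts mainly on the bone morphogenetic protein (BMP) branch (ENSG00000137834, plus strand, chr15:66702228-66782848, 4 exons). Its expression was 3.48 and 3.53 FPKM in TF1-BA and 5.37 and 5.22 FPKM in TF1-BAR libraries, from 537, 468, 725 and 719 fragments. The replicates of each line were close together and the lines were well apart. The mean rose from 3.50 ± 0.0411 to 5.30 ± 0.105 FPKM (SD, n = 2), with a log2 fold change of 0.53 (SE 0.081, 95% confidence interval 0.32 to 0.74, adjusted p = 0.0139), the lowest adjusted p of the 10 genes. It did not pass without TF1-BA replicate 1 (adjusted p = 0.117), TF1-BA replicate 2 (0.112) or TF1-BAR replicate 2 (0.0624), while the log2 fold change stayed between 0.52 and 0.55 in these fits. SMAD6 lies 280.9 kb from SMAD3 on chromosome 15, with 0 tested genes between them.

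SMAD7 encodes the inhibitory SMAD that blocks the TGF-beta type I receptor and brings ubiquitin ligases to it (ENSG00000101665, minus strand, chr18:48919853-48950711, 4 exons). It was at 1.65 and 1.52 FPKM in TF1-BA and at 2.51 and 3.29 FPKM in TF1-BAR libraries, from 110, 87, 146 and 195 fragments. Both TF1-BAR libraries were higher, with TF1-BAR replicate 2 the highest. The mean rose from 1.59 ± 0.0903 to 2.90 ± 0.549 FPKM (SD, n = 2), and the log2 fold change of 0.69 (SE 0.15, 95% confidence interval 0.31 to 1.08, adjusted p = 0.0299) was the highest of the 10 genes. It was 0.58 with a pseudocount of 1 FPKM and 0.82 with 0.1 FPKM, and both passed. It did not pass with no filter on low values (adjusted p = 0.0989), nor without TF1-BA replicate 1 (0.134), TF1-BA replicate 2 (0.156) or TF1-BAR replicate 2 (0.0956). SMAD2 and SMAD4 lie 988.7 kb and 2078 kb away on the same chromosome arm and did not pass. The ratio of SMAD7 to SMAD6 in FPKM was 0.475 and 0.431 in TF1-BA and 0.467 and 0.629 in TF1-BAR libraries, which overlapped.

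SKIL encodes SnoN, a corepressor of SMAD complexes (ENSG00000136603, plus strand, chr3:170357678-170396835, 7 exons). It was at 8.61 and 7.54 FPKM in TF1-BA and at 7.79 and 6.004 FPKM in TF1-BAR libraries. The lines overlapped, since TF1-BAR replicate 1 was above TF1-BA replicate 2. The means were 8.07 ± 0.760 and 6.90 ± 1.27 FPKM (SD, n = 2), and the log2 fold change of −0.22 (SE 0.14, 95% confidence interval −0.59 to 0.15, adjusted p = 0.303), the lowest of the 10 genes, did not pass. Leaving out 1 library moved it between −0.40 (TF1-BAR replicate 1 left out) and −0.045 (TF1-BAR replicate 2 left out, where SMAD3 was lower at −0.18). The ratio of SKIL to SMAD4 in FPKM was 2.16 and 2.08 in TF1-BA and 1.94 and 1.78 in TF1-BAR libraries, and the lines did not overlap in it.

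**Figure D2:**
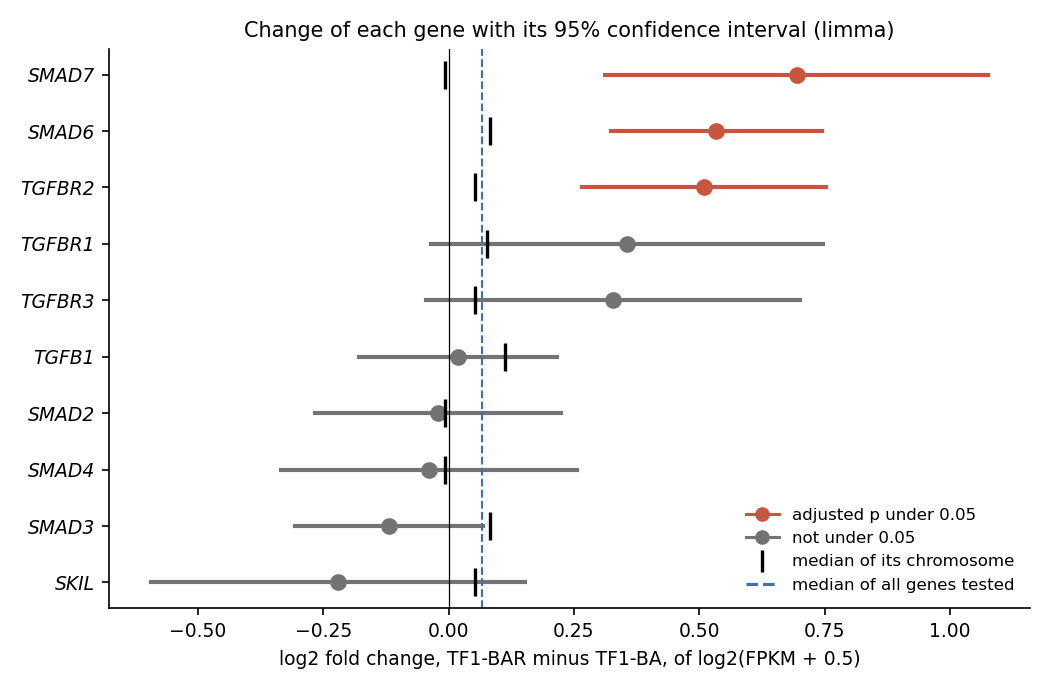
Log2 fold change of each gene (horizontal axis, TF1-BAR minus TF1-BA on log2(FPKM + 0.5)) with its 95% confidence interval from limma as a bar, the median of its chromosome as a black tick and the median of all genes tested, 0.066, as a dashed line. The intervals of SMAD7, SMAD6 and TGFBR2 (red, adjusted p under 0.05) lie above the dashed line, and those of the other 7 genes (grey) cross 0.

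None of the chromosomes that hold these genes had shifted far as a whole. The median log2 fold change was 0.11 on chromosome 19, 0.083 on chromosome 15, 0.077 on chromosome 9, 0.052 on chromosomes 1 and 3, and −0.0071 on chromosome 18. After subtraction of the chromosome median, TGFBR2 was at 0.46, SMAD6 at 0.45 and SMAD7 at 0.70, and all 3 still passed. Of the tested neighbours within 1 Mb, 5 of 15 passed the test around SMAD6, with a median log2 fold change of 0.11, and 1 of 5 around SMAD7, with a median of 0.023.

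In order of FPKM, which is a level per length, the genes of TF1-BA cells ran from TGFB1 over SMAD3, TGFBR2, SKIL, TGFBR1, SMAD4, SMAD6, SMAD2 and SMAD7 to TGFBR3, and the libraries of neighbours in that order did not overlap. TF1-BAR cells kept the first 5 places and the last, but SMAD6 stood above SMAD4 and SMAD7 above SMAD2, and SKIL and TGFBR1 overlapped. These changes of order were not tested, and SMAD3 stayed above both inhibitory SMADs in both lines. The order depends on the transcript length: the length behind the FPKM of SMAD6 was 8563 bases, while its MANE Select transcript has 3828 bases. Per MANE Select length SMAD6 reached a mean of 7.84 in TF1-BA, the fifth place, and 11.9 in TF1-BAR cells, the fourth place, in FPKM recomputed with that length. It was then above SMAD4 in both lines, at 5.69 and 5.53, so that the change of order between SMAD6 and SMAD4 was lost. SMAD7 stayed above SMAD2 in TF1-BAR cells on that scale, at 3.20 against 2.57, and below it in TF1-BA cells, at 1.75 against 2.62. Both lengths of SMAD2 were close, at 36366 and 34626 bases, so that its place with a shorter transcript was not tested.

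The rest of the pathway was followed in a list of 108 further genes, of which 103 were in the table and 71 passed the filter. 21 of the 71 rose and 10 fell at an adjusted p under 0.05, or 43.7% against 26.9% of all genes, and 40 did not pass. Without TF1-BA replicate 1, TF1-BA replicate 2 and TF1-BAR replicate 2, 1, 0 and 16 of them passed. By both thresholds 4 rose and 4 fell, or 8 of 71 against 4.75% of all genes, and 1 and 0 did without TF1-BA replicate 1 and TF1-BA replicate 2. Each gene named below as higher or lower lost its call under 1 alternative (CDKN2B) or more, up to 9 (GDF11 and SNAI2), and the number is given for those that lost it under 8 or more. After subtraction of the chromosome median the split was 13 higher and 12 lower, and over all genes tested the share of calls that were higher went from 60.9% to 48.8%. When FPKM were rescaled to TPM, 6 rose and 3 fell by both thresholds. The median log2 fold change of the 71 genes was 0.14.

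**Figure D3:**
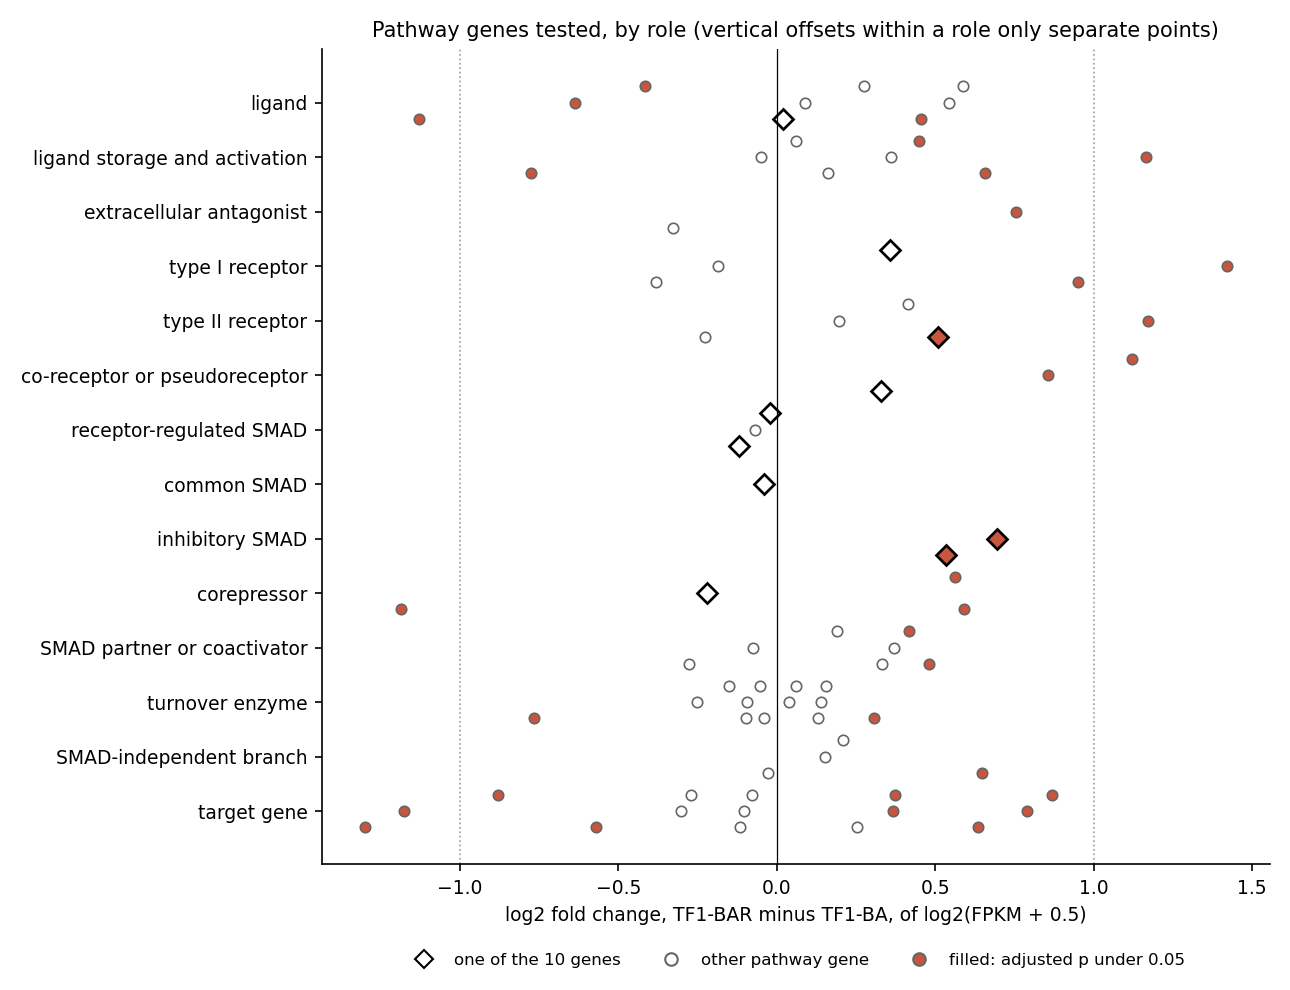
Log2 fold change (horizontal axis, TF1-BAR minus TF1-BA on log2(FPKM + 0.5)) of the pathway genes tested, in rows by role, with the 10 genes as diamonds and the 71 others as circles, filled where the adjusted p was under 0.05 and with dotted lines at −1 and 1. Points of receptors and co-receptors that passed lie to the right of 0, and those of ligands and target genes on both sides.

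Among the ligands, 1 of 8 tested rose and 3 fell. GDF15, a stress-induced member of the family, fell from 33.6 to 15.1 FPKM (log2 fold change −1.13, adjusted p = 0.0166), INHBE, an inhibin subunit, from 15.6 to 9.94 FPKM (−0.64, adjusted p = 0.0281) and BMP6 from 19.3 to 14.4 FPKM (−0.42, adjusted p = 0.0189). GDF11 rose from 3.55 to 5.05 FPKM (0.46, adjusted p = 0.0443), a call lost under 9 of the 16 alternatives, among them chromosome subtraction (0.38, adjusted p = 0.0754). TGFB1, at over 100 FPKM in all 4 libraries, was thus the highest of the listed ligand genes found in the table (BMP2, BMP4, BMP5 and BMP7 were not analysed here), and its level did not differ detectably.

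Of the genes for storage and activation of the ligand, 3 of 8 rose and 1 fell. LRRC32, which holds latent TGF-beta at the cell surface, was at 4.74 and 4.76 FPKM in TF1-BA and at 10.4 and 12.2 FPKM in TF1-BAR libraries (log2 fold change 1.16, adjusted p = 0.00538). NRROS, its relative in myeloid cells, rose from 49.1 to 77.7 FPKM (0.66, adjusted p = 0.0096). Of the latent TGF-beta binding proteins, LTBP4 rose from 22.9 to 31.5 FPKM (0.45, adjusted p = 0.0241), which did not pass after chromosome subtraction (0.34, adjusted p = 0.0509) or under 5 other alternatives, and LTBP1 fell from 2.03 to 0.984 FPKM (−0.78, adjusted p = 0.0229). Both genes that anchor latent ligand on the cell were thus higher. FST, the activin antagonist follistatin, rose from 7.12 to 12.4 FPKM (0.76, adjusted p = 0.00735), 1 of 2 antagonists tested.

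Among receptors of the wider family, 2 of 4 type I and 1 of 4 type II receptors outside the 10 genes rose and 0 fell, against 16.3% higher and 10.5% lower of all genes. ACVRL1, a type I receptor also known as ALK1, had 43, 24, 133 and 169 fragments in the 4 libraries, TF1-BA first, and its mean rose from 0.390 to 1.88 FPKM (log2 fold change 1.42, adjusted p = 0.0107). ACVR1B, the type I receptor of activin, rose from 5.57 to 11.3 FPKM (0.95, adjusted p = 0.00837), and AMHR2, the type II receptor of anti-Mullerian hormone, from 2.97 to 7.31 FPKM (1.17, adjusted p = 0.00418). ACVR1, the type I receptor with the highest mean over the 4 libraries though below ACVR1B in TF1-BAR cells, was at 9.29 and 8.11 FPKM (−0.19, adjusted p = 0.154). BMPR1A, a type I receptor of BMPs on chromosome 10 (median −0.35), was at 2.74 and 1.99 FPKM (−0.38, adjusted p = 0.0734). The 14 tested neighbours of BMPR1A within 1 Mb had a median of −0.62. BMPR2, the type II receptor of BMPs, was at 2.44 and 2.01 FPKM (−0.23, adjusted p = 0.173). ACVR2A (0.20, adjusted p = 0.414) and ACVR2B (0.41, adjusted p = 0.0675), type II receptors of activin, were above 0, and none of these 4 receptors passed. These 4 genes are outside the naming rule and were chosen after their values were seen. TGFBR2 had the highest level among the type II receptors of the list. ENG, the co-receptor endoglin, rose from 32.4 to 59.1 FPKM (0.86, adjusted p = 0.00626), so that it was far above TGFBR3 in FPKM. BAMBI, a pseudoreceptor without kinase activity that blocks signalling, rose from 0.649 to 1.99 FPKM (1.12, adjusted p = 0.0157), on a chromosome 10 whose median was −0.35.

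In the nucleus, SMAD5 was the receptor-regulated SMAD of the list that could be tested, at 10.4 and 9.94 FPKM (−0.069, adjusted p = 0.658). All 3 corepressors beside SKIL passed, in both directions. SKI, the closest relative of SKIL, rose from 15.3 to 22.9 FPKM (log2 fold change 0.56, adjusted p = 0.0114) and TGIF2 from 15.6 to 23.7 FPKM (0.59, adjusted p = 0.00884), while TGIF1 fell from 3.38 to 1.20 FPKM (−1.18, adjusted p = 0.00992). The median of chromosome 20, which holds TGIF2, was 0.39, and TGIF2 did not pass after its subtraction (0.20, adjusted p = 0.0989). SKI and SKIL thus had opposite signs, and whether they differed from each other was not tested. Of the SMAD partners, RUNX1 rose from 7.09 to 10.1 FPKM (0.48, adjusted p = 0.0129) and the coactivator CREBBP from 5.88 to 8.04 FPKM (0.42, adjusted p = 0.0457), 2 of 7 tested. The call of CREBBP was lost under 8 of the 16 alternatives, among them chromosome subtraction (0.30, adjusted p = 0.107) and upper-quartile scaling (0.39, adjusted p = 0.0505).

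Of the turnover enzymes 15.4% passed, against 26.9% of all genes tested. Of 13 tested, 1 rose, the ubiquitin ligase ITCH on chromosome 20 (log2 fold change 0.31, adjusted p = 0.0269), which was at −0.082 after subtraction of the chromosome median. The 1 that fell was the deubiquitinase UCHL5, from 19.6 to 11.6 FPKM (−0.76, adjusted p = 0.0498), a call lost under 8 of the 16 alternatives. Its TF1-BAR libraries were at 14.1 and 9.08 FPKM, and leaving out 1 library moved its log2 fold change between −1.07 and −0.46. In the SMAD-independent branch, TAB2, an adaptor of the kinase TAK1, rose from 38.1 to 60.1 FPKM (0.65, adjusted p = 0.016), 1 of 4 tested.

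Genes that TGF-beta or BMP signals are known to induce went both ways, with 5 of 15 higher and 4 lower. CDKN2B, the cell cycle inhibitor p15 and a textbook TGF-beta target, was at 23.2 and 27.3 FPKM in TF1-BA and at 9.87 and 10.0 FPKM in TF1-BAR libraries (log2 fold change −1.30, adjusted p = 0.0043). ID2 fell from 27.6 to 14.8 FPKM (−0.88, adjusted p = 0.00624) and ID3 from 3.15 to 1.18 FPKM (−1.18, adjusted p = 0.041), both inhibitors of differentiation and targets of BMP signals. SNAI2, a transcriptional repressor, rose from 0.247 to 0.868 FPKM (0.87, adjusted p = 0.0419), on 8 and 10 fragments in TF1-BA and 26 and 35 in TF1-BAR libraries, and its call was lost under 9 of 15 alternatives, among them chromosome subtraction (0.80, adjusted p = 0.0561). ID3 lost its call under 5 of 16, among them rescaling to TPM (−1.34, adjusted p = 0.0506). The inhibitory SMAD6 and SMAD7, which are themselves known targets of these signals, were higher while CDKN2B, ID2 and ID3 were lower.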

How the data were processed

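The authors made 2 RNA libraries from each of TF1-BA and TF1-BAR cells with a New England Biolabs kit that is not stated to keep strand, for Illumina sequencing. Paired-end reads of 150 bp were aligned by the authors to GRCh38 with TopHat2 2.0.13, and Cufflinks and Cuffdiff 2.2.0 are named in the submitters' processing notes. The values the authors deposited are FPKM for 32673 genes in each library, not log transformed, with no pooled columns. The annotation release is not given in the sources used here. 26 symbols that had turned into dates were restored from gene identifiers.

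Fragments were recovered by finding the library size and the gene lengths that turn FPKM into whole numbers within 0.01, with 14816 genes whole at the length of GENCODE 44 and 16037, all 10 genes among them, at a fitted length. With wrong library sizes 6 of 276 genes were whole. These numbers carry counting error together with whatever else differed between the libraries.

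The test was limma 3.58.1 in R 4.3.3 (trend, Benjamini-Hochberg adjustment over 15519 genes with a mean of at least 0.5 FPKM) on log2(FPKM + 0.5), since the unit is not counts. On simulated libraries of the same depth, 27.4% of 190 genes changed 1.5-fold had an adjusted p under 0.05 among 15544 tested. Of 185 changed 2-fold, 71.9% did among 15549. In these runs 5 and 12 unchanged genes were called, and 0 of 15580 where no gene was changed. The simulation gave all genes a single spread, taken from the 2 TF1-BA libraries, so that these shares may not hold for the real libraries. Named beside the 10 genes were, per role of the pathway list, up to 4 genes with an adjusted p under 0.05 and the largest fold change, and the most abundant ligand, receptor of each type and receptor-regulated SMAD. The 10 genes, the lists, the motifs and the tests were chosen with earlier results of these data known. BMP2, BMP4, BMP5, BMP7 and CCN2 of the list were not analysed here. The alternatives were pseudocounts of 1 and 0.1 FPKM, a minimum of 1 FPKM or none, 3 scalings, 2 variance models, a replicate block, leaving out each library, limma voom on fragments, and subtraction of chromosome medians.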

Additional observations from a re-analysis of the deposited data

How the results depend on the processing

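The count of 0 genes past both thresholds held under all 16 alternatives for the 10 genes. Of the 10 genes, 3 had an adjusted p under 0.05, against 1 with no filter on low values (more genes tested), 5 with limma voom and 0 to 3 without 1 library, where 0 passed without TF1-BA replicate 1, TF1-BA replicate 2 or TF1-BAR replicate 2 and a lone library is assumed to vary like the pair. Over all genes, 144, 42 and 1028 passed in these 3 fits against 4167. Of the other pathway genes, 31 passed, against 11 with no filter and 0 to 26 without 1 library, and 8 passed both thresholds, against 5 with a pseudocount of 1 FPKM, 3 with no filter and 0 to 8 without 1 library. The cause was not tested. The lowest counts came without TF1-BA replicate 2 (0 and 0) and replicate 1 (1 and 1), while 16 and 4 passed without TF1-BAR replicate 2.

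Signs turned for TGFB1 under upper-quartile scaling (−0.0077) and chromosome subtraction (−0.093), for SMAD2 (0.040) and SMAD4 (0.022) as TPM, and for ITCH under chromosome subtraction (−0.082). Without 1 library, TGFB1 ranged from −0.067 to 0.10, SMAD4 from −0.15 to 0.069 and SMAD5 from −0.20 to 0.058, and none of these passed. Of 607 values of single genes under an alternative, 477 kept direction and side of the threshold, 117 lost it, 3 gained it and 10 changed sign.

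Same-numbered libraries deviated from their means with a correlation of 0.0646 over genes, and 2 pairs cannot show a pairing. With a replicate block, 4 of the 10 genes had an adjusted p under 0.05, TGFBR1 being added (0.36, adjusted p = 0.0490), and 0 passed both thresholds. Of the other pathway genes 27 and 8 did. TGFBR3 and SMAD7 had the fewest fragments of the 10 genes, at 87 to 195 per library, and 1.5-fold changes were mostly missed in simulated data.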

Other observations

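Pathway genes under the filter of 0.5 FPKM were not tested, and of these 32 genes 0 had an adjusted p under 0.05 when no filter was used. Among them, chosen after their values were seen, TGFB3 was listed with 46 and 57 fragments in TF1-BA and 15 and 10 in TF1-BAR libraries, the BMP antagonist CHRD with 78 and 78 against 27 and 33, and GDF3 with 2 and 1 against 11 and 21. SMAD1, a receptor-regulated SMAD of the BMP branch, was listed with 0, 1, 0 and 0 fragments, while its relative SMAD5 was at about 10 FPKM in both lines.

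ACVRL1 and ACVR1B, which both rose, are neighbours on chromosome 12, 28.3 kb apart with 0 tested genes between them, and AMHR2 lies 1427 kb further on. The median log2 fold change of the 21 tested genes within 1 Mb of ACVRL1 was 0.42, with 8 at an adjusted p under 0.05, against 0.080 for the chromosome. Around LRRC32 on chromosome 11 the median of 23 tested neighbours was 0.47, with 8 that passed, against 0.11 for the chromosome. Around AMHR2 it was 0.13 over 35 genes. The part of these neighbourhoods in the values of the 4 genes was not tested.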
